A study of Mus musculus with 2 samples.

Results

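The complement components and regulators described here are 8 genes, C3, C4b, Cfb, Cfd, Serping1, C1s1, C1ra and Cd55, taken by symbol from the 33904 genes of each deposited matrix. Each symbol named a single row in both matrices. Dorsal skin of female C57BL/6J mice was profiled by droplet single-cell RNA sequencing in 1 Ctrl and 1 AD library. All mice were 7 weeks old and had been depilated with Nair 24 h before the first application. The AD library came from skin painted daily for 10 days with MC903 (calcipotriol, a vitamin D analogue that gives atopic dermatitis-like inflammation) in ethanol, at 4.5 nmol per application, and the Ctrl library from skin given ethanol alone. Both skins were taken on day 10, and how many mice were pooled per library is not given in the sources used here. With 1 library per condition there was no replicate and no test of the treatment. The intervals below are 95% intervals of counting error only, exact Poisson for a level, Clopper-Pearson for a share of cells and exact conditional for a ratio.

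Complement is a cascade of plasma and tissue proteins. In the classical route, C1q bound to a target activates the proteases C1r and C1s, which cleave C4 and C2, and the resulting enzyme cleaves C3. In the alternative route, C3b pairs with factor B, which factor D cleaves, so that more C3 is split. Serping1 encodes C1 inhibitor, which blocks C1r and C1s, and Cd55 encodes decay-accelerating factor, a membrane-anchored protein that takes apart the C3-cleaving enzymes on the cell's own surface. The liver supplies most plasma complement, and stromal cells such as dermal fibroblasts (dFBs) also make several components. The data hold RNA only, so cleavage or deposition of the proteins was not measured.

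In GRCm38 with GENCODE release 21, C3 lies on the minus strand at chr17:57203970-57228136 and C4b at chr17:34728380-34743882, with Cfb 112 kb away at chr17:34856374-34862518. C1ra (chr6:124512405-124523443, plus strand) and C1s1 (chr6:124530345-124542359, minus strand) are neighbours 6.90 kb apart. The others were Cfd (chr10:79890853-79892655), Serping1 (chr2:84765387-84775444) and Cd55 (chr1:130439027-130462744). The last 400 bases of the C4b transcript were 98.0% identical to its paralogue C4a, and those of C1s1 82.5% identical to C1s2. In dFBs C4a held 0.124% of the UMIs of both copies in Ctrl and 0.0979% in AD, so the C4b values are given with the reservation that reads shared by the copies could not be placed.

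RefSeq promoter windows on GRCm38.p6 were held for 5 of the 8 members. The windows of 4 are shown because the results turn on these genes, and C1ra and C1s1 also because they are neighbours with near-equal changes in dFBs. Each line gives the 250 bases before the RefSeq start, 5′ to 3′ on the gene's own strand, at chr17:57228137-57228386 (C3), chr1:130462745-130462994 (Cd55), chr6:124512371-124512620 (C1ra) and chr6:124542360-124542609 (C1s1). The RefSeq start of C1ra lies downstream of the GENCODE start, so its window lies mostly inside the GENCODE gene given above. Capitals mark a match to TTGCNNAA, a C/EBP-type motif, on either strand.
C3: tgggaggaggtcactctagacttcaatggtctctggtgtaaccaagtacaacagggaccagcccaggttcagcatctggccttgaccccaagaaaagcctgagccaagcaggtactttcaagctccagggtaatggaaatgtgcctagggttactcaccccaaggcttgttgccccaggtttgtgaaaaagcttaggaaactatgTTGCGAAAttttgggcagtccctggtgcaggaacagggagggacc
Cd55: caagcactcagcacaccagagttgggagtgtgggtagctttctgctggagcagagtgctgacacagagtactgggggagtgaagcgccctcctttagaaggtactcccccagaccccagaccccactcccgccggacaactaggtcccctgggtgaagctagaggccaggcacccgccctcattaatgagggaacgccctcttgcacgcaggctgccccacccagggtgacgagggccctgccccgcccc
C1ra: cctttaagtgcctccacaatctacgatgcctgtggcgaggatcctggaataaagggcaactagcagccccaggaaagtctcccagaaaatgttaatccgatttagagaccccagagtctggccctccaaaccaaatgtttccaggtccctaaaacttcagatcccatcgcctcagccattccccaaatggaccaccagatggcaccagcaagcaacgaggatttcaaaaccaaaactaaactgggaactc
C1s1: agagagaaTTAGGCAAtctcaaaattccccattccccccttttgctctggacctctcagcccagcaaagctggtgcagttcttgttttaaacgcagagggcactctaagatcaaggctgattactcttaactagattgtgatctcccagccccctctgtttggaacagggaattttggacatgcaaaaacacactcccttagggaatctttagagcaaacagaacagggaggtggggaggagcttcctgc
The C3 window held 1 match that began 45 bases before the start and the C1s1 window 1 match that began 242 bases before it. Among 32851 promoter windows of this length 9.56% held such a match. A STAT-type motif, TTCNNNGAA, was found in none of the 5 windows, and it occurred in 7.02% of all windows. A match of letters is a description of the window and not a binding site.

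The Ctrl library held 11399 cells and 105195951 UMIs (molecular tags that count RNA molecules) after the cell filter and the AD library 8179 cells and 61645227 UMIs, with medians of 7813 and 6330 UMIs per cell. Cell types were gated per cell on marker lists that contain no complement gene, which placed 76.5% of Ctrl and 78.5% of AD cells. All 7 dFB markers were highest in dFBs in both libraries, which selection on these same markers largely fixed in advance. The gate held 6245 dFBs in Ctrl and 4628 in AD. It also held keratinocytes (KCs, 1021 and 344), macrophages (312 and 186), T cells (431 and 383), lymphatic endothelial cells (163 and 219), blood endothelial cells (101 and 112), pericytes with vascular smooth muscle (123 and 96), Schwann cells (88 and 67) and melanocytes (63 and 50). Adipocytes numbered 0 in Ctrl and 87 in AD. Levels are given as CPM, the gene's UMIs scaled to 1000000 UMIs of the cells summed. The collagen gene Col1a1, a dFB marker, had 7009 CPM in Ctrl and 227 CPM in AD in the Dpp4 dFBs described below, so the gate rested on lower collagen counts in AD. In the same cells the markers Col1a2, Col3a1, Lum and Dpt were also lower in AD. The marker Dcn changed less, from 10044 to 7861 CPM, and Pdgfra was higher, at 485 and 823 CPM. In the Grem1/Cyp26b1 dFBs, also described below, Col1a1 had 16691 and 1317 CPM. In Leiden clusters, an unsupervised grouping of both libraries by expression without complement genes, 12 of the 15 dFB clusters came to at least 95% from a single library, and they held 96.5% of the clustered dFBs. The largest held 2295 Ctrl and 2 AD cells and the next 10 Ctrl and 1466 AD cells. dFBs of the libraries thus stood apart in expression, and a library difference cannot be told apart from the treatment in any value below. The libraries shared 29 kept cell barcodes.

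Among the kept cells, RNA of every member but Cfd lay mostly in dFBs. Of all kept UMIs of C3, C4b, Cfb, Serping1, C1s1 and C1ra, dFBs held between 85.2% (Cfb) and 96.2% (C3) in Ctrl and between 78.7% (Cfb) and 91.5% (C1ra) in AD. Cd55 was in dFBs for 91.1% of its UMIs in Ctrl and 69.5% in AD. Cfd was the exception, with 2.21% and 2.78% of its UMIs in dFBs. These shares follow the number of dFBs in each library as well as the level per cell.

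**Figure D1:**
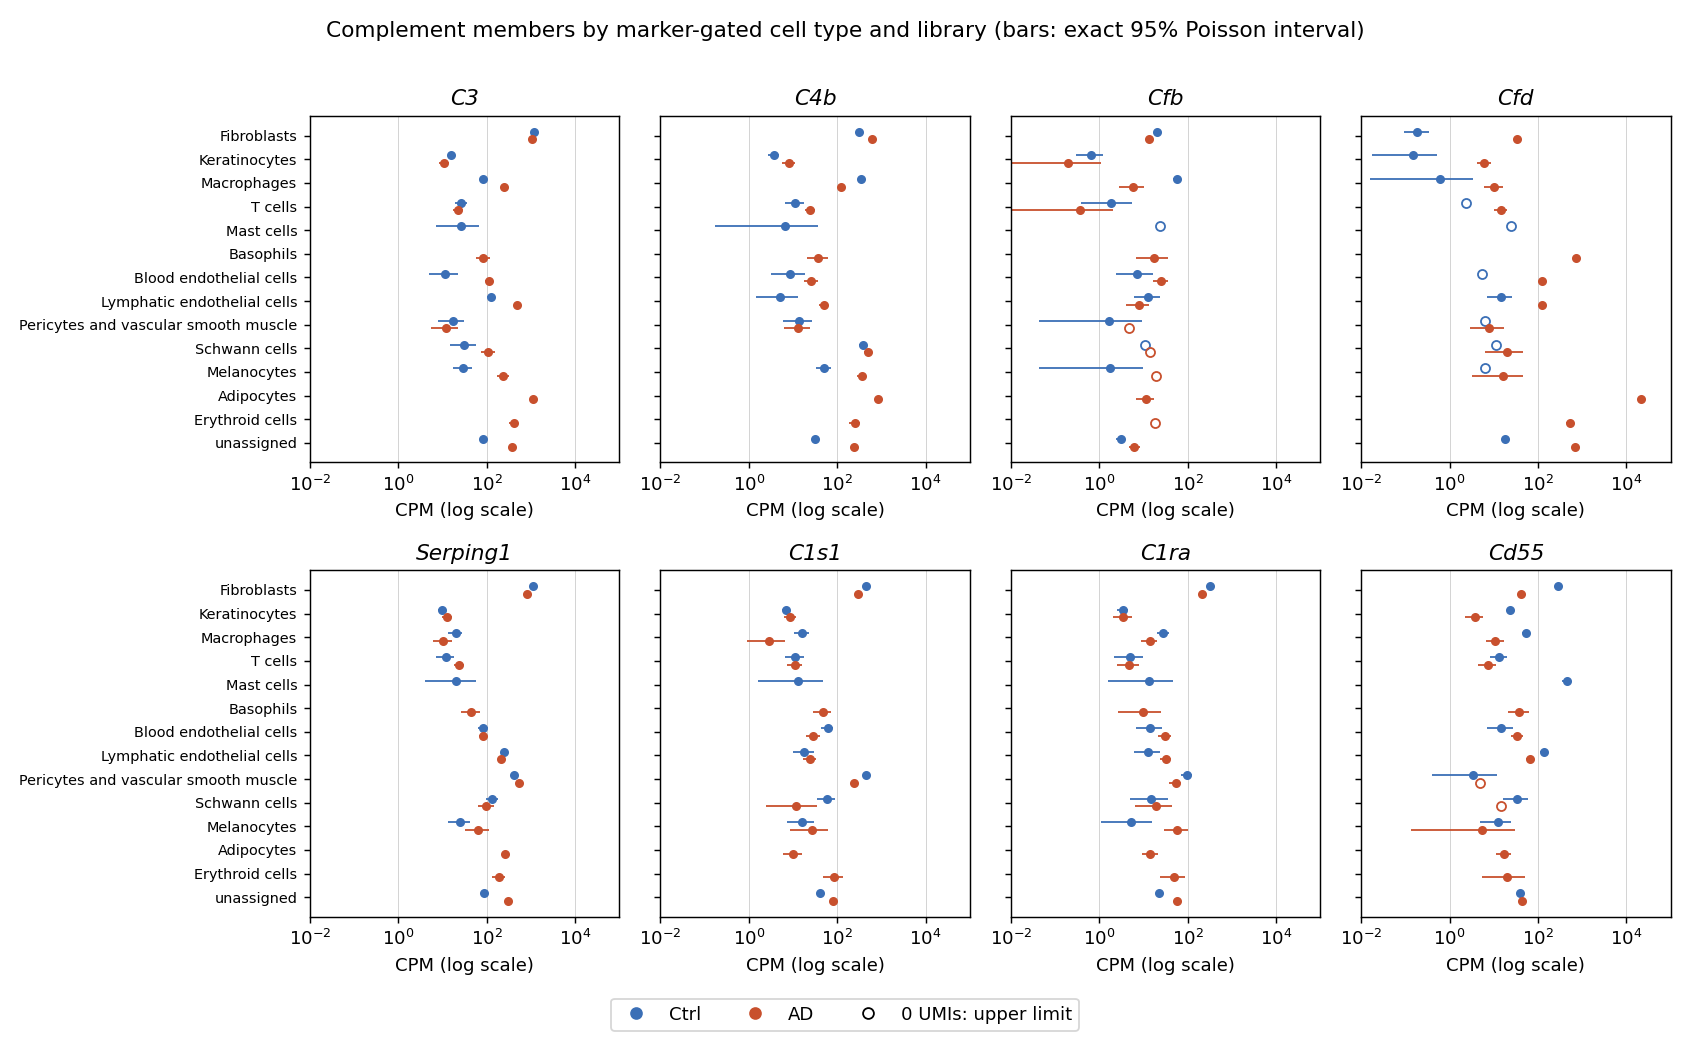
Each panel gives one member's CPM (UMIs of the gene scaled to 1000000 UMIs of that cell type, log axis) in every gated type with at least 50 cells, Ctrl in blue and AD in red, with exact 95% Poisson intervals; open circles are upper limits where no UMI was found. The C3 level in dFBs was 1162 CPM in Ctrl and 1063 CPM in AD, while Cfd was highest in AD adipocytes at 21979 CPM.

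The initiating proteases and their inhibitor were lower in AD dFBs. C1ra, the first protease to be activated, was at 319 CPM in Ctrl and at 215 CPM in AD (log2 ratio -0.57, interval -0.61 to -0.53). C1s1, which C1r activates and which cuts C4 and C2, was at 439 and 298 CPM (log2 ratio -0.56, interval -0.59 to -0.52). Serping1, the inhibitor, was at 1126 and 814 CPM (log2 ratio -0.47, interval -0.49 to -0.45). All 3 genes thus lay below Ctrl by less than 2-fold, and the ratios of C1ra and C1s1 had overlapping intervals.

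Among the central components, C4b was higher and C3 was close to level in AD dFBs. C4b, which C1s cleaves, had 315 CPM in Ctrl and 610.0 CPM in AD (log2 ratio 0.95, interval 0.92 to 0.98), just under 2-fold. C3, on which all routes meet, had 1162 and 1063 CPM (log2 ratio -0.13, interval -0.15 to -0.11). C3 was very uneven between cells, since the 10% of dFBs with the most C3 held 55.5% of its UMIs in Ctrl and 54.7% in AD. The median dFB held 154 CPM of C3 in Ctrl and 494 CPM in AD, whereas the cell at the 90th percentile held 3757 and 2216 CPM. The sum and the median of C3 per cell therefore differed between the libraries in opposite directions.

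Alternative pathway genes were sparse in dFBs. Cfb, encoding factor B, gave 1162 UMIs or 19.9 CPM in Ctrl and 496 UMIs or 13.5 CPM in AD. Cfd, encoding factor D or adipsin, gave 11 UMIs (0.188 CPM) in Ctrl and 1243 UMIs (33.8 CPM) in AD dFBs. The AD count was spread over 379 cells, 1 of which held 288 UMIs. Cfd was found in 8.19% of AD dFBs and in 8.88% of AD T cells, which are not known to make it, at medians of 7066 and 5987 UMIs. After thinning the shares were 1.41% and 1.31%. The level was higher in dFBs, at 33.8 against 14.6 CPM, and it ran from 10.6 CPM in Dpp4 to 46.1 CPM in Fmo2/F3/Gdf10 dFBs. The share of cells with Cfd did not follow this order, at 6.82% in Dpp4, 5.66% in Fmo2/F3/Gdf10 and 10.1% in Grem1/Cyp26b1 dFBs. Because the share of dFBs with Cfd was near the T cell share, no Cfd expression by dFBs is read from it. The source of the Cfd counts in dFBs was not tested.

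Cd55 showed the largest difference of the 8 members in dFBs apart from Cfd. It gave 16967 UMIs in Ctrl (289.8 CPM) and 1537 UMIs in AD (41.8 CPM), which is a log2 ratio of -2.79 (interval -2.87 to -2.72). A UMI of Cd55 was present in 66.8% of Ctrl dFBs (65.7 to 68.0) and in 19.3% of AD dFBs (18.2 to 20.5). The log2 ratio was -2.77 with 1 CPM added to both levels and -2.53 with 10 CPM added, and it stayed between -2.83 and -2.75 in the other alternatives run for it. The difference was thus seen in the level and in the share of cells alike.

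Of the 6 members with at least 100 CPM in dFBs of either library, 0 were at least 2-fold higher in AD and 1, Cd55, was at least 2-fold lower. Over all 2066 genes at that level, 12.7% were at least 2-fold higher and 12.2% at least 2-fold lower, so 1 of 6 is near the background share. C4b lay next to the limit and passed it when each cell counted equally (log2 ratio 1.12) or cells were thinned to 1000 UMIs (1.13). The median log2 ratio was -0.51 over these members and 0.04 over all genes. No p-value is given, since genes and cells are not replicates of a condition.

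**Figure D2:**
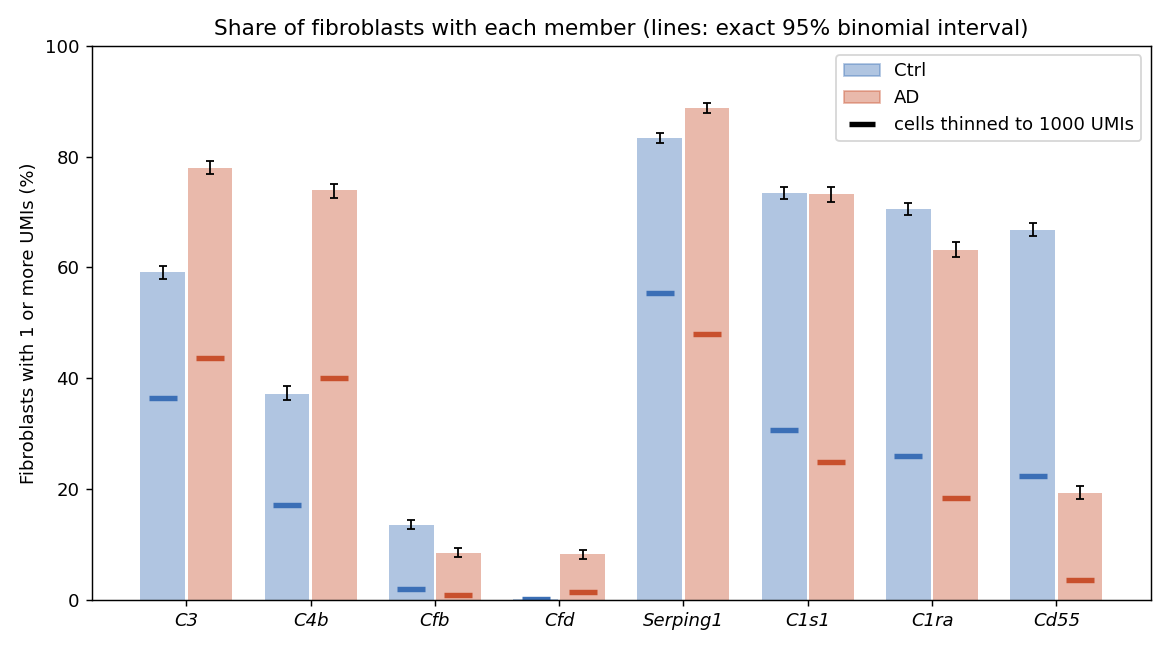
Bars give the percent of dFBs with at least 1 UMI of each member in Ctrl (blue) and AD (red), with exact 95% binomial intervals, and thick dashes the percent after each cell was thinned to 1000 UMIs. Cd55 was found in 66.8% of Ctrl and 19.3% of AD dFBs, and C4b in 37.2% and 73.9%.

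At equal depth, C4b was found in more AD than Ctrl dFBs, and C1s1, C1ra and Cd55 in fewer. C4b was found in 37.2% of Ctrl and 73.9% of AD dFBs, and in 17.1% and 40.0% after thinning to 1000 UMIs, for which 121 Ctrl cells were too shallow. C3 was found in 59.1% and 78.0%, or 36.4% and 43.7% after thinning; because its CPM moved the other way, no order is read from these shares. Serping1 was found in 83.4% and 88.8%, but in 55.3% and 48.0% after thinning, so its order turned with depth. C1s1 (30.6% and 24.8%), C1ra (26.0% and 18.3%) and Cd55 (22.3% and 3.63%) were found in fewer AD cells at equal depth. In T cells the unthinned shares were 9.28% and 8.09% for C3, 3.71% and 7.31% for C4b, 4.41% and 6.53% for Serping1, 3.94% and 4.70% for C1s1, and 1.86% and 2.35% for C1ra, at medians of 3100 and 5987 UMIs. The Cd55 shares of T cells were 4.64% and 4.70%. For these genes the dFB shares were well above the T cell shares in both libraries.

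The dFB subsets were set apart by at least 1 UMI of their genes and none of the other subsets' genes: Dpp4 (847 Ctrl and 337 AD cells), Fmo2, F3 or Gdf10 (266 and 1078), and Grem1 or Cyp26b1 (1393 and 556). Cells with genes of several subsets (2836 and 2317) made up 45.4% and 50.1% of dFBs, and cells with none of the genes numbered 903 and 340. In Ctrl, Dpp4 dFBs had the highest CPM of C3, C4b, Serping1, C1s1, C1ra and Cd55 among the 3 subsets, and the intervals did not overlap those of the other subsets. Membership rests on the detection of few UMIs, and the subset sizes are given as gate counts only. The gate genes also differed between Ctrl and AD. Dpp4 had 587 and 369 CPM in Dpp4 dFBs, and Fmo2 155 and 988 CPM in Fmo2/F3/Gdf10 dFBs. Cyp26b1 had 1061 and 2249 CPM in Grem1/Cyp26b1 dFBs. A difference in which cells passed a gate cannot be told apart from a difference within a subset.

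In summed CPM, C3 reversed its order over the subsets. In Ctrl it stood at 2382 CPM in Dpp4, 1048 CPM in Fmo2/F3/Gdf10 and 239.5 CPM in Grem1/Cyp26b1 dFBs, so that Dpp4 lay above Grem1/Cyp26b1 by 3.31 on the log2 scale (3.26 to 3.37). In AD it stood at 763, 816 and 1531 CPM, and the same contrast was -1.01 (-1.08 to -0.93). Within subsets the AD over Ctrl log2 ratio was -1.64 in Dpp4, -0.36 in Fmo2/F3/Gdf10 and 2.68 in Grem1/Cyp26b1 dFBs. The near-level sum over all dFBs included subset values that differed in opposite directions between these 2 libraries. Cells with genes of several subsets held most of that sum, 41530 of 68050 UMIs in Ctrl and 23549 of 39101 in AD. When cells with genes of several subsets were counted in each, the contrast shrank to 1.18 in Ctrl and -0.58 in AD and kept its signs. In those cells themselves the AD over Ctrl ratio of C3 was -0.41. The share of cells with C3 did not reverse. In Dpp4, Fmo2/F3/Gdf10 and Grem1/Cyp26b1 dFBs it was 86.0%, 52.6% and 43.8% in Ctrl and 86.9%, 79.7% and 62.8% in AD. After thinning the shares were 66.9%, 32.8% and 17.9% in Ctrl and 44.5%, 44.2% and 42.5% in AD.

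C4b was higher in AD in every subset, but by unequal amounts. It went from 625 to 746 CPM in Dpp4 dFBs (log2 ratio 0.26), from 358 to 823 CPM in Fmo2/F3/Gdf10 dFBs (1.20) and from 32.7 to 301 CPM in Grem1/Cyp26b1 dFBs (3.20, interval 3.04 to 3.37). Its excess in Dpp4 over Grem1/Cyp26b1 dFBs was 4.25 on the log2 scale in Ctrl and 1.31 in AD. It was 1.29 and 0.47 with cells of several subsets counted in each, and 3.30 and 0.98 with thinning before gating. Cells with none of the subset genes had the widest ratio, 3.79, from 46.8 to 649.7 CPM.

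The protease genes and their inhibitor were lower in AD in Dpp4 dFBs and in cells with genes of several subsets. Serping1 there went from 1444 to 576 CPM (log2 ratio -1.33), against -0.08 in Fmo2/F3/Gdf10 and 0.08 in Grem1/Cyp26b1 dFBs. C1ra went from 468 to 214 CPM in Dpp4 dFBs (-1.12), and by -0.27 and -0.58 in the other subsets. C1s1 went from 700.5 to 357 CPM in Dpp4 dFBs (-0.97), and by -0.49 and -0.43 in the others. Cells with genes of several subsets, the largest group, had ratios of -0.75 for Serping1, -0.77 for C1ra and -0.75 for C1s1. In cells with none of the subset genes all 3 were higher in AD, with log2 ratios of 0.52, 0.42 and 0.51 in this order. The Serping1 contrast of Dpp4 over Grem1/Cyp26b1 dFBs, 0.88 in Ctrl and -0.52 in AD, shrank to 0.40 and -0.11 with cells of several subsets counted in each and to 0.43 and -0.11 with thinning before gating.

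Cd55 was lower in AD in every subset. It went from 491 to 75.6 CPM in Dpp4 dFBs, from 153 to 31.0 CPM in Fmo2/F3/Gdf10 dFBs and from 199 to 37.5 CPM in Grem1/Cyp26b1 dFBs. The log2 ratios lay between -2.70 and -2.31, with -2.52 in cells with none of the genes and -2.80 in cells with several. Its order over the subsets was the same in both libraries at the level of the estimates, though Fmo2/F3/Gdf10 and Grem1/Cyp26b1 dFBs could not be told apart in AD (log2 contrast -0.28, interval -0.57 to 0.02). Cfb gave few UMIs, with 276 in Ctrl and 16 in AD Dpp4 dFBs (33.2 and 7.38 CPM) and 114 and 81 in Grem1/Cyp26b1 dFBs (9.54 and 17.2 CPM).

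**Figure D3:**
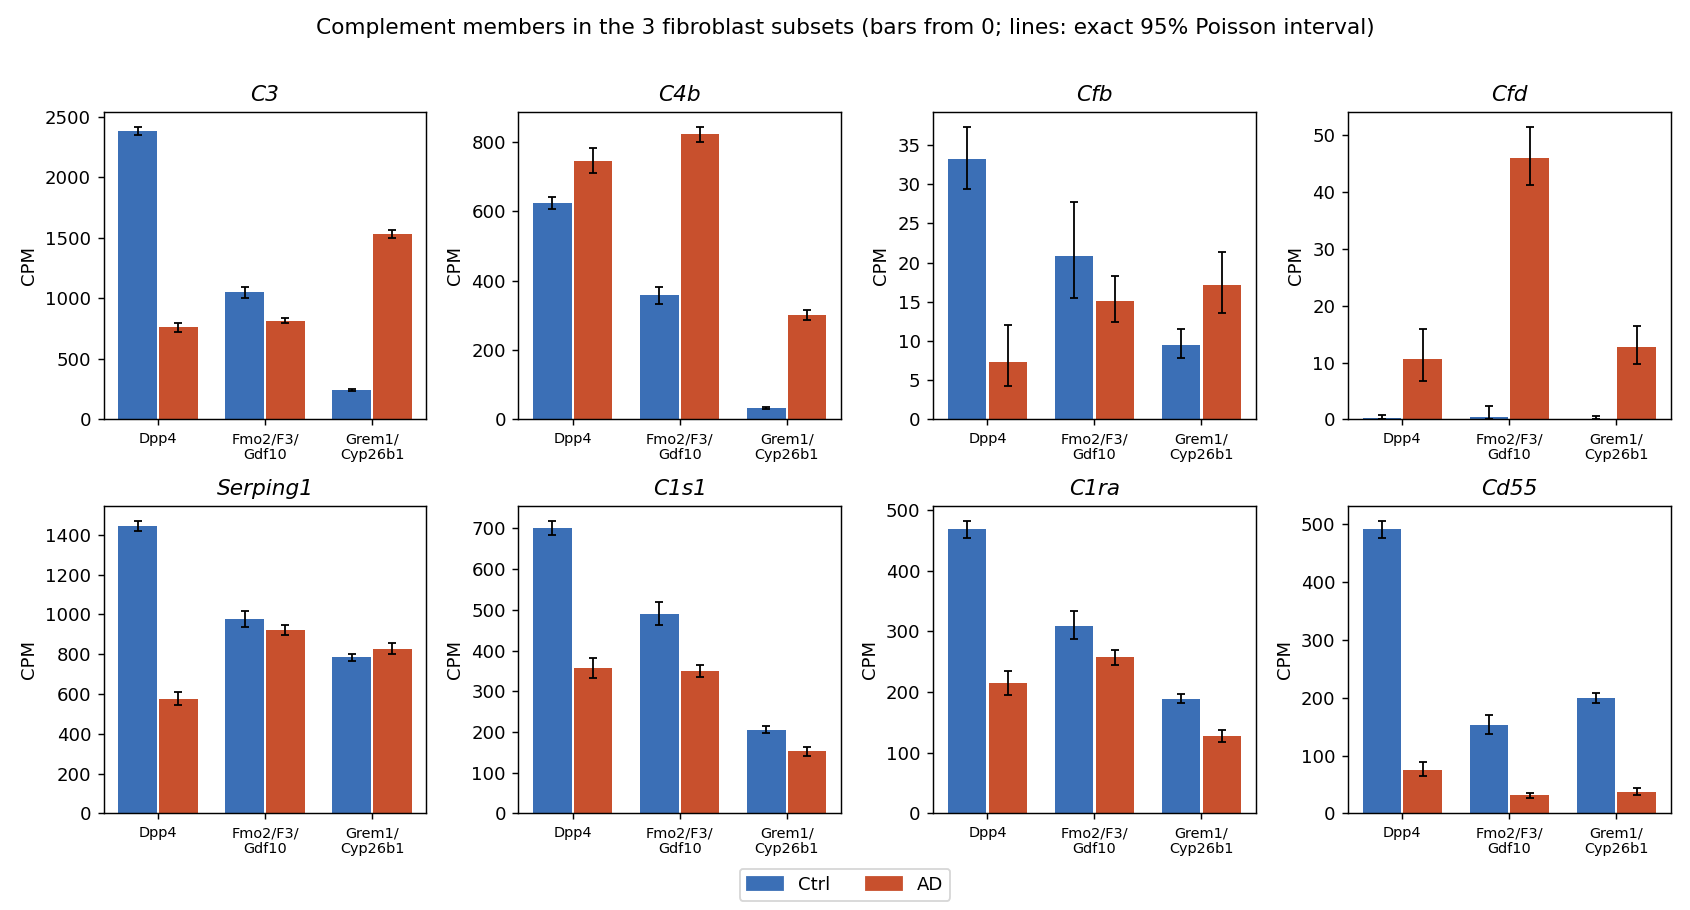
Bars from 0 give the CPM of each member in the Dpp4, Fmo2/F3/Gdf10 and Grem1/Cyp26b1 dFBs of Ctrl (blue) and AD (red), with exact 95% Poisson intervals as lines; the vertical scale differs between panels. C3 was at 2382 and 763 CPM in the first subset and at 239.5 and 1531 CPM in the last, while Cd55 was lower in AD in all of them.

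In macrophages C3 was higher and C4b lower in AD. C3 gave 133 UMIs in Ctrl macrophages (82.0 CPM) and 430 UMIs in AD macrophages (247 CPM), with a log2 ratio of 1.59 (interval 1.31 to 1.88). C4b gave 551 and 212 UMIs (339.6 and 122 CPM), with a log2 ratio of -1.48 (interval -1.72 to -1.25). Of the 2 members with at least 100 CPM in macrophages, C3 was thus at least 2-fold higher and C4b at least 2-fold lower, where 7.76% and 10.1% of 1894 genes were. When macrophages were instead taken from Leiden clusters, which held 370 Ctrl and 81 AD cells, the C3 ratio was 1.45 but that of C4b turned to 0.32. Cfb gave 92 UMIs in Ctrl macrophages (56.7 CPM) and 10 in AD macrophages (5.74 CPM), a log2 ratio of -3.10 with 1 CPM added that became -1.19 with Leiden clusters. The median level of dFB markers in macrophages was 1.27% of that in dFBs in Ctrl and 1.02% in AD, against 7.05% and 23.2% for C3. The part of dFB RNA in these values was not tested.

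Pericytes with vascular smooth muscle held the inhibitor and the proteases. Serping1 had 405 CPM in the Ctrl and 523 CPM in the AD cells, and C1s1 had 457 and 236 CPM. The AD value of Serping1 was 880.3 CPM with Leiden clusters and 453 CPM with a stricter gate. C1ra was at 95.7 and 53.5 CPM. dFB markers in these cells had a median of 1.09% of the dFB level in Ctrl and 5.78% in AD, where the highest marker reached 61.0%. The Ctrl C1s1 level was 104% of that in dFBs.

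In lymphatic endothelial cells, C3 had 126 CPM in Ctrl and 472 CPM in AD, Serping1 had 249 and 213 CPM, and Cd55 had 138 and 67.4 CPM. The AD value of C3 there was 726 CPM with Leiden clusters and 346 CPM with a stricter gate. Schwann cells gave 126 UMIs of C4b in Ctrl (381 CPM) and 128 in AD (498 CPM), with overlapping intervals of 317 to 453 and 415 to 592. Under a stricter gate these values became 679 and 264 CPM, so their order turned. Cd55 was at 451 CPM in the 81 Ctrl mast cells and at 849 CPM (50 UMIs) in the 29 AD mast cells, a group under the 50-cell minimum for comparison. KCs held little of any member, and their Cd55 was 23.4 CPM in Ctrl and 3.74 CPM in AD. In macrophages Cd55 had 54.9 and 10.9 CPM (log2 ratio -2.23 with 1 CPM added, and -1.11 with Leiden clusters), and in blood endothelial cells 14.5 and 34.0 CPM from 10 and 39 UMIs. Cd55 was thus lower in AD in dFBs, KCs, macrophages and lymphatic endothelial cells, and its estimate was higher in blood endothelial cells.

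The marker gate found adipocytes in AD alone, so they allow no comparison between libraries, and the Leiden cluster named for adipocytes held 3 Ctrl and 172 AD cells. Their 87 cells held 36898 UMIs of Cfd, or 82.5% of all Cfd UMIs of the library, at 21979 CPM, and every cell had some. C3 was at 1120.4 CPM and C4b at 857 CPM in these cells, next to 1063 and 610.0 CPM in AD dFBs. In Ctrl, 472 UMIs of Cfd lay in 7 cells that no gate placed. Fewer adipocytes captured and less Cfd RNA in Ctrl skin cannot be told apart. In other AD types Cfd reached 719 CPM in basophils (290 UMIs, found in 8 of 61 cells), 521 CPM in erythroid cells and 125 CPM in blood endothelial cells. The 7 adipocyte markers summed to 245, 175 and 16.6 CPM there, against 6966 CPM in adipocytes. Their part in the Cfd values was not tested.

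Of 43 other complement genes reported, 19 reached 100 CPM in a type of at least 50 cells. In dFBs 2 did: Masp1, a protease of the lectin route, and the scavenger receptor Colec12. Masp1 went from 81.9 to 169.7 CPM (log2 ratio 1.05, interval 1.00 to 1.11), and Colec12 from 163 to 161 CPM. Masp1 was thus at least 2-fold higher only barely, and it lay under 2-fold in all 4 alternatives run for it. Of all 2066 dFB genes at that level, 12.7% were at least 2-fold higher.

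In macrophages 10 of these genes reached 100 CPM. The C1q chains, which begin the classical route, were at 2683 and 1458 CPM (C1qa), 2063 and 1261 CPM (C1qb) and 1762 and 874 CPM (C1qc). C1qc, Fcna (a ficolin, at 189 and 89.0 CPM) and the terminal component C6 (107 and 7.46 CPM) were at least 2-fold lower in AD, and 0 of the 10 were at least 2-fold higher. Over all 1894 macrophage genes at that level, 10.1% were at least 2-fold lower and 7.76% at least 2-fold higher. The regulator properdin, Cfp, went from 582 to 293 CPM. The anaphylatoxin receptors C3ar1 (299.5 and 185 CPM) and C5ar1 (279 and 171 CPM) were lower by less than 2-fold, and the integrin chains Itgam (255 and 390.5 CPM) and Itgb2 (107 and 171 CPM) higher. With Leiden clusters, the ratios of C1qa and C1qb went from -0.88 and -0.71 to -0.00 and 0.02, those of C1qc and Fcna turned to 0.03 and 0.51 and that of C6 shrank to -1.94, so these values hold for the gated cells only.

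**Figure D4:**
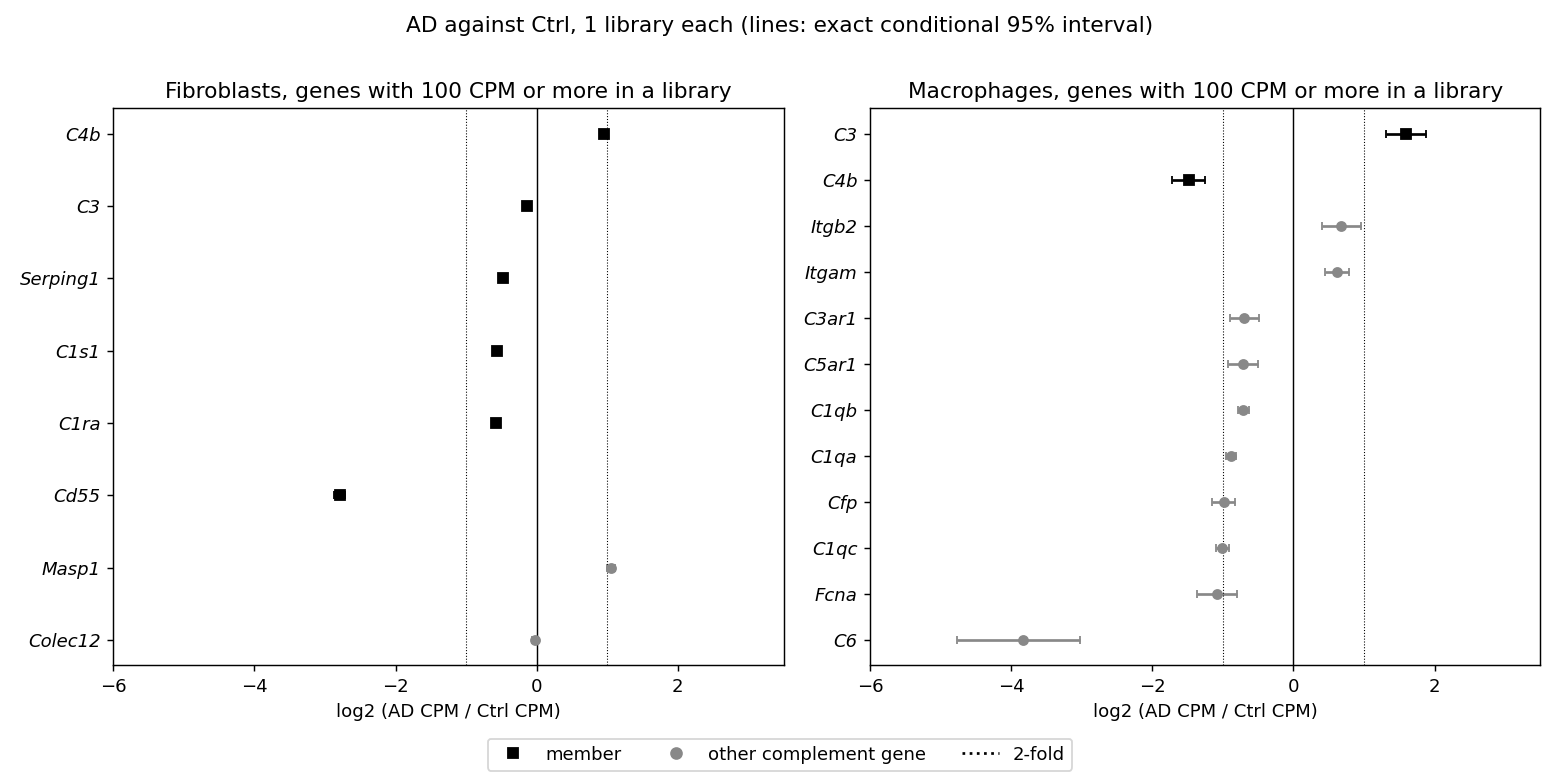
Points give the log2 ratio of AD over Ctrl CPM, with exact conditional 95% intervals, for members (squares) and other complement genes (circles) with at least 100 CPM in a library, in dFBs (left) and macrophages (right); dotted lines mark 2-fold. C4b stood at 0.95 in dFBs and -1.48 in macrophages, and Cd55 at -2.79 in dFBs.

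The other 7 named genes were highest elsewhere. Cd93 (808 CPM), the clusterin gene Clu (569 CPM) and Cr1l (175 CPM) peaked in blood endothelial cells, Cd59a (545 CPM) and Csmd1 (101 CPM) in Schwann cells, Susd4 (104 CPM) in lymphatic endothelial cells and C2 (101 CPM) in melanocytes. Cd59a, whose product blocks the terminal pore, thus had its highest level in another type than Cd55.

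Across the 22 profiles of types with at least 50 cells, pooled over both libraries, members fell into unlike patterns. C1s1, C1ra and Serping1 correlated with each other at Pearson's r of 0.81 to 0.84, and C3 with C4b at 0.72, whereas Cd55 correlated with no member above 0.43. Among 5308 genes, those most like C1s1 were Shox2 (r = 0.96), Pcolce (0.94) and Runx1t1 (0.94), and those most like C3 were Gpx3 (0.88), Dapk1 (0.87) and Htra3 (0.86). Cfd ranked with the adipocyte genes Cidec (0.95) and Mrap (0.94). Cidec is itself a marker of the adipocyte gate, and the only adipocyte profile was that of AD. C4b was nearest to Snx10 (0.89), Serping1 to Cped1 (0.90), C1ra to Adamts2 (0.88), Cfb to Igf1 (0.76) and Cd55 to Slc29a1 (0.79). Cfb was under 100 CPM in all 22 profiles, so its match rests on low levels. These values describe profiles that share libraries and base levels and carry no p-value.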

How the data were processed

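Female mouse dorsal skin was profiled with 10x Chromium 3′ v3.1 chemistry in 1 Ctrl and 1 AD library. The authors deposited raw UMI counts per gene and barcode, aligned to mm10; the matrix header names Cell Ranger 5.0.0, and the submitters' processing notes name Cell Ranger 3.1.0 and Seurat 5.0. The labels name collagenase D with dead cell removal, the methods collagenase IV with red cell lysis.

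The cell filter of the methods was applied (200 to 6000 genes detected, mitochondrial share up to 10%). A cell took the type with the largest percent of its markers found, if at least 40% and 20 points ahead of the next type; these limits were set after seeing how many cells each gate held. No doublets were removed, since Scrublet's automatic limit called 395 cells in Ctrl and 0 in AD; leaving out the 5% highest scores was an alternative chosen after seeing the data. Counts were summed per type and divided by that type's total (CPM). Calls used genes with at least 100 CPM in a library and 2-fold on log2(CPM + 1); ratios printed with intervals have no pseudocount. Intervals are 95%. Members and lists were chosen with earlier results of these data known. Named were the members, other listed complement genes with at least 100 CPM in a type of at least 50 cells, and the genes with the most similar profiles, by Pearson correlation of log2(CPM + 10); 1 listed complement gene is not reported here. The sums and ratios were tested on simulated data for the dFB comparison, where 94.8% of intervals over 1693 genes held the true ratio. The simulated sums were Poisson draws without spread between cells or animals, so coverage near 95% was built in. Python 3.11.15, numpy 2.4.6, scipy 1.17.1, pandas 2.3.3, scanpy 1.11.5 and leidenalg 0.10.2 were used.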

Additional observations from a re-analysis of the deposited data

Results flagged for a closer look

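Results are listed here because AD and Ctrl differed in opposite directions in different cells, with 1 library per condition; none of these differences between cell groups was tested. C3 had a log2 ratio of AD over Ctrl of -1.64 in Dpp4 dFBs and 2.68 in Grem1/Cyp26b1 dFBs. C4b had ratios of 0.95 in dFBs and -1.48 in macrophages. The macrophage value moved to 0.32 when macrophages were taken from Leiden clusters.

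A signal of Cfd lay in cells that no gate placed. It stood at 680.5 CPM in AD (5747 UMIs in 164 of 1757 cells), against 18.2 CPM in Ctrl (472 UMIs in 7 of 2680 cells). The 7 adipocyte markers summed to 172 CPM in these AD cells and to 23.4 CPM in the Ctrl cells. Adipocytes missed by the gate were not told apart from other cells holding adipocyte RNA.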

How the results depend on the processing

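The count of members at least 2-fold higher in AD dFBs was 0. It became 1, C4b, with the mean of each cell's own CPM, with thinning to 1000 UMIs and with a 1.5-fold limit. With no filter on low values it also became 1, but the member was Cfd. The count of members at least 2-fold lower stayed 1 in all 11 alternatives. The count of other complement genes higher in dFBs, 1, became 0 with all deposited barcodes, a stricter gate, Leiden clusters or 10 CPM added, in each of which Masp1 lay under 2-fold. In macrophages the count of lower genes, 3, became 1 with Leiden clusters and 5 with a stricter gate; the ratios of C4b, C1qc and Fcna turned to 0.32, 0.03 and 0.51 with Leiden clusters, and the cause was not tested. The C3 contrast of Dpp4 over Grem1/Cyp26b1 dFBs was 3.47 in Ctrl and -0.87 in AD with at least 2 UMIs of the subset genes, 1.18 and -0.58 with cells of several subsets counted in each, and 2.64 and -0.83 after thinning before gating. It was 3.41 in Ctrl dFBs with at least 5000 UMIs and -0.86 in AD with the dFBs of Leiden clusters, both added after seeing the data. It kept its sign in all of these. Of 216 values at other settings for single genes or types, 105 stayed within their counting interval, 108 moved beyond it with the sign kept or the ratio under 2-fold, and the 3 ratios past 2-fold named above changed sign. The ratio of C1qb in macrophages, under 2-fold, also turned, from -0.71 to 0.02, with Leiden clusters. Scaling by the median ratio shifted dFB values by 0.04 and macrophage values by -0.01. No paired analysis was possible because each condition had 1 library, and leaving out a replicate was likewise not possible. Depth limits Cfb and Cfd in dFBs, and all members in types of about 100 cells.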
